A study of Mus musculus with 6 samples.

Results

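Follistatin, the secreted protein that captures activins, and the genes of the activin pathway around it were examined in the otic vesicle. This sac of epithelium gives rise to the inner ear. The genes are Fst, its relatives Fstl3 and Fstl1, the activin subunit genes Inhba and Inhbb, and the receptor genes Acvr2a, Acvr2b, Acvr1b and Acvr1. Every probe set (a group of short array probes that reads 1 transcript region) that the platform annotation gives to a single one of these 9 genes was taken, which made 19 of the 45037 probe sets of the array. Fst was chosen by its measured difference between the groups compared here, and the other genes for their place in its pathway. With a variance prior following expression level, 13 genes (0.104% of those tested) passed limma's test, and Fst was the only one of the 9 among them. The fit reported below called 0 genes. Because Fst was chosen by its difference on these same arrays, its passing adds no separate support. The difference of Fst is therefore a description and is given without a test.

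The arrays compare 2 groups of mouse embryos, all at embryonic day 11.5. Mest-KO embryos were conditional knockouts of Tbx1, a T-box transcription factor gene, made with T-Cre. This recombinase acts in early mesoderm, which surrounds the vesicle and does not form its epithelium. The controls were conditional Tbx1 heterozygotes that carried T-Cre as well, so both groups carry the recombinase. Each group had 3 arrays, and each array held RNA from both ears of 3 pooled embryos, so 1 array averages several animals. The deposited intensities had been scaled to a trimmed mean of 500 on every array.

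Activins are dimers of inhibin beta subunits. They bind a type II receptor, which recruits and activates a type I receptor, and the activated receptor phosphorylates Smad2 and Smad3, which then act with Smad4 on target genes. Follistatin wraps around activin and keeps it from its receptors, and it also binds some related ligands of the TGF-beta family. In the later mouse cochlea, activin promotes and follistatin delays the differentiation of hair cells.

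The labelled tissue carried its markers. Of 9 otic and epithelial markers 8 were named on the array, and all 8 lay above the brightness filter, with summed intensities from 31805 to 35773 in Mest-KO and from 35194 to 35394 in controls. Other tissue was present too. The 9 mesenchyme markers summed to between 1568 and 5664 in Mest-KO and between 1286 and 3719 in controls, and globin transcripts were bright on every array. The Mest-KO 1 pool had an Xist intensity of 16.1 and the control 2 pool an Eif2s3y intensity of 12.1, so each of these pools held 1 sex. Mest-KO 3 had the highest median intensity, 91.0 against 62.1 to 71.0 on the other arrays.

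Fst, which encodes follistatin, was lower in every Mest-KO pool than in every control pool at both of its probe sets. The brighter one (1434458_at) had intensities of 1080, 1395 and 1025 in the Mest-KO pools, against 3649, 2711 and 2368 in the control pools. The dimmer one (1421365_at) had intensities of 106, 84.5 and 125 in Mest-KO, against 428, 318 and 279 in controls. The groups did not overlap at either probe set, and on the normalized log2 scale the gap between them was wider than the range within either group.

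On the normalized scale Fst was 2.48-fold lower in Mest-KO at the brighter probe set (log2 difference -1.31, SE 0.207) and 3.41-fold lower at the dimmer one (log2 difference -1.77, SE 0.181). Each difference is given as Mest-KO minus control on the log2 scale, with the SE of the limma fit and n = 3 arrays per group. Intensities at the brighter probe set averaged 1166 ± 199.7 in Mest-KO pools and 2909 ± 663 in control pools (SD, n = 3 each). Both probe sets stayed above the filter in both groups, so Fst remained measurable in the Mest-KO vesicles. Of the 12462 genes tested, 18 had a lower log2 difference than Fst.

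The value of Fst moved little with the arrays used, the same arrays on which Fst was chosen for its difference. With each array left out in turn, the log2 difference ran from -1.45 to -1.13 at the brighter probe set and from -1.91 to -1.62 at the dimmer one. Between the pools that held both sexes it was -1.30 and -1.80, with the deposited scaling alone -1.31 and -1.69, and with median centring -1.46 and -1.84. The mesenchyme sums, which were 1568, 5664 and 3607 in the Mest-KO pools and 3719, 2341 and 1286 in the control pools, overlapped between the groups. The summed intensity of the 3 neural crest and glia markers named on the array ran from 7895 to 8148 in Mest-KO and from 8180 to 9071 in controls, without overlap, but each of these markers overlapped by itself. Erbb3 ran from 7568 to 7842 in Mest-KO and from 7421 to 8157 in controls, and Foxd3, a defining neural crest gene, stayed between 1.23 and 31.2 on all arrays. Fabp7 read 303, 361 and 270 in Mest-KO against 1619, 396 and 191 in controls, where the single high array is control 1, the array with the most Fst. Of the 5 neuroblast markers 4 had a higher mean in Mest-KO, and the sums overlapped, from 6417 to 7076 in Mest-KO and from 5991 to 6612 in controls. Among them Neurod1 read 1945, 1379 and 1490 in Mest-KO against 994, 1122 and 1096 in controls, without overlap. Insm1 ran from 253 to 261 against 86.2 to 142, and Elavl3 from 120 to 140 against 74.3 to 110, each without overlap. Neurog1 overlapped, from 165 to 225 in Mest-KO against 128 to 171 in controls. Isl1, the brightest, also overlapped but had a lower mean in Mest-KO, at 4534, 4475 and 4691 against 4639, 5102 and 5043. Over all tested genes, 4.74% were higher in Mest-KO without overlap after normalization. All 3 macrophage markers above the filter had a lower mean in Mest-KO, and the sums of the 5 markers overlapped, from 197 to 333 in Mest-KO and from 179 to 583 in controls. The part of these markers in the difference of Fst was not tested. In RNA from whole vesicles, fewer cells of a type and less RNA per cell cannot be told apart.

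**Figure D1:**
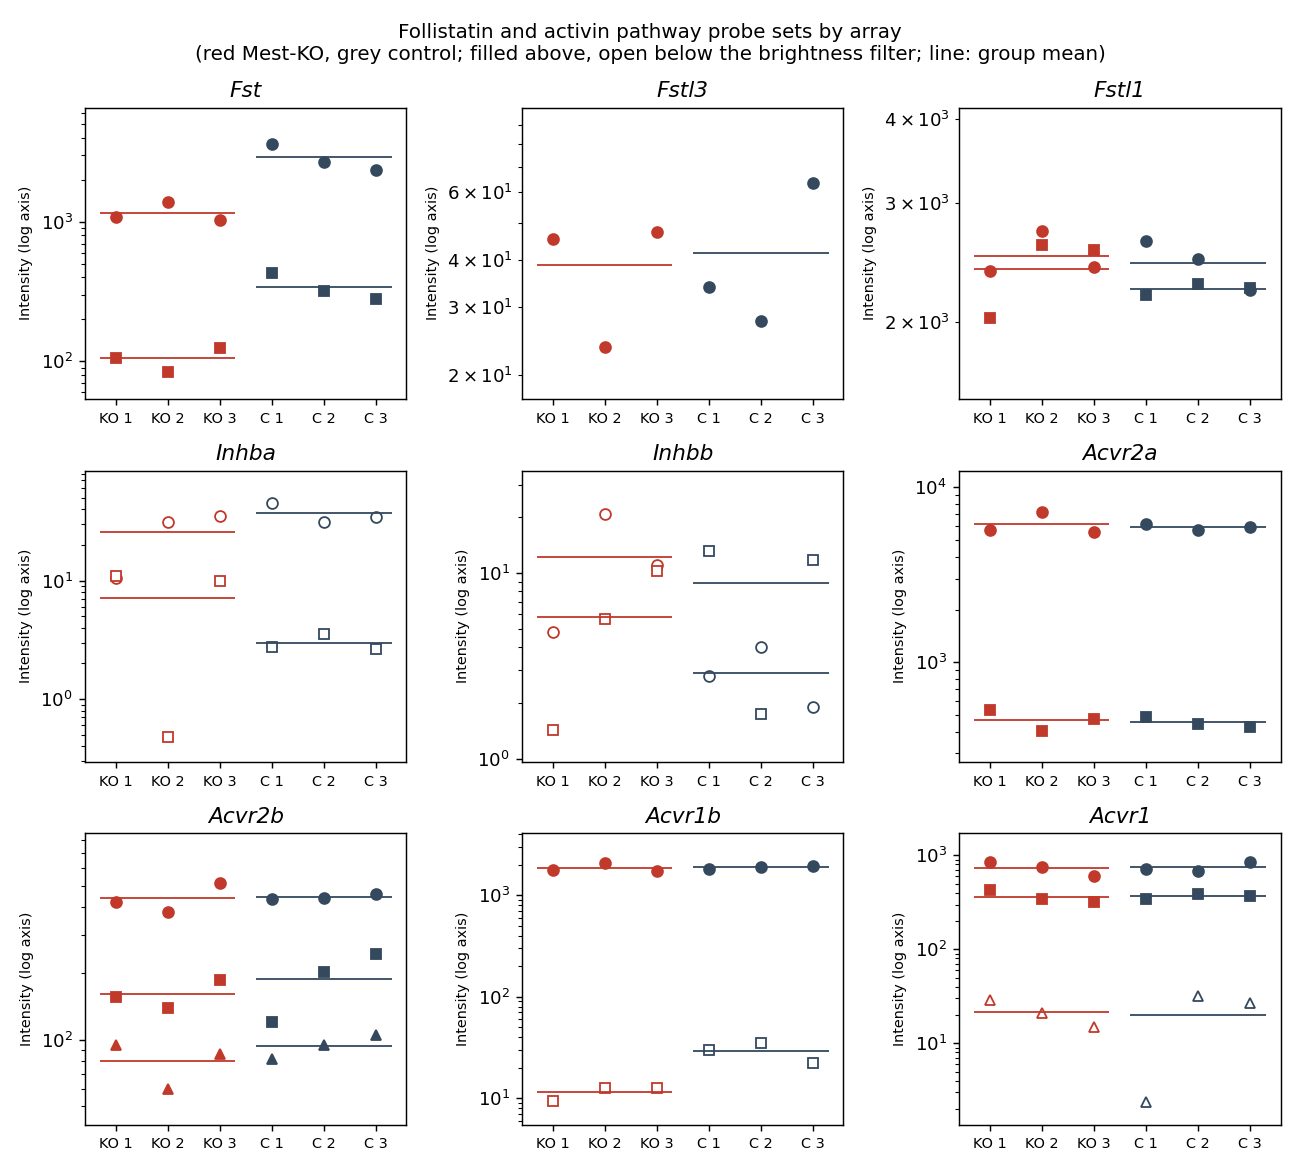
Intensity of each probe set of the 9 genes on the 3 Mest-KO arrays (KO, red) and the 3 control arrays (C, grey), on log axes whose ranges differ between panels. Circles, squares and triangles mark the probe sets of a gene from the highest to the lowest mean, open symbols lie below the brightness filter, and lines are group means; both Fst probe sets are lower on all Mest-KO arrays, and those of Fstl1, Acvr2a, Acvr2b and Acvr1 that pass the filter overlap between the groups.

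The relatives of follistatin showed no such gap. Fstl3, which encodes a secreted activin-binding protein related to follistatin, was dim, with intensities of 45.2, 23.6 and 47.3 in Mest-KO against 33.9, 27.7 and 63.3 in controls. The groups overlapped, and the log2 difference was -0.23 (SE 0.357, 95% confidence interval from -1.10 to 0.64), an interval too wide to exclude a 2-fold change in the downward direction. Fstl1, a secreted glycoprotein with a follistatin-like domain, was bright. Its brighter probe set (1448259_at) read 2378, 2733 and 2418 in Mest-KO against 2634, 2481 and 2229 in controls, a log2 difference of 0.04 (interval from -0.23 to 0.31). The other (1416221_at) read 2030, 2604 and 2562 against 2192, 2279 and 2245, a log2 difference of 0.10 (interval from -0.22 to 0.41). Both Fstl1 intervals lie far from the size of the Fst difference.

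The activin subunit genes were dim, and none of their 4 probe sets passed the filter. Inhba, which encodes the beta A subunit, had its brighter probe set (1422053_at) at 10.6, 31.0 and 34.8 in Mest-KO and 45.1, 31.4 and 34.1 in controls. These deposited values overlapped, although after quantile normalization every Mest-KO value lay below every control value (log2 difference -0.89). Its second probe set (1458291_at) read 10.9, 0.482 and 10.003 in Mest-KO and 2.78, 3.52 and 2.65 in controls, and differed the other way, by 0.60.

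Inhbb, which encodes the beta B subunit, also gave opposite signs. One probe set (1426859_at) read 4.84, 20.9 and 11.02 in Mest-KO against 2.80, 4.01 and 1.89 in controls, without overlap, a log2 difference of 1.78 that came to 0.19 when intensities under 16 were set to 16. The other (1426858_at) read 1.43, 5.65 and 10.3 against 13.3, 1.76 and 11.7, a log2 difference of -0.75. With values this dim and signs that disagree, neither a rise nor a fall of the activin subunit transcripts was detectable.

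The type II receptor genes, whose products bind activin first, lay well above the filter in both groups. Acvr2a read 5718, 7214 and 5522 in Mest-KO at its brighter probe set (1437382_at), against 6213, 5722 and 5925 in controls. Its log2 difference was 0.08 (SE 0.129, interval from -0.24 to 0.39), with 0.03 (interval from -0.28 to 0.33) at the other probe set (1451004_at). The groups overlapped at both.

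Acvr2b was read by 3 probe sets, all above the filter, with differences below 0 over the 6 arrays. The brightest (1419140_at) read 421, 380 and 515 in Mest-KO against 433, 441 and 458 in controls, a log2 difference of -0.05 (interval from -0.38 to 0.28), which turned to 0.04 without Mest-KO 2. The middle one (1439856_at) read 156, 140 and 186 against 120, 202 and 245, a difference of -0.25 (interval from -0.93 to 0.43), which was -0.57 without control 1, -0.14 without control 2 and -0.05 without control 3. The dimmest (1440525_at) read 94.4, 59.7 and 86.1 against 82.2, 94.6 and 106, a difference of -0.41 (interval from -0.92 to 0.11). Every one of these probe sets had overlapping groups, and the dimmest had the smallest limma p of the members other than Fst, 0.102 before and 0.969 after adjustment.

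The type I receptor genes likewise overlapped between the groups where they were bright. Acvr1b, which encodes the type I receptor through which activin activates Smad2 and Smad3, read 1784, 2064 and 1728 in Mest-KO against 1808, 1910 and 1961 in controls (1433725_at). Its log2 difference was -0.03 (SE 0.106, interval from -0.28 to 0.23), the narrowest interval among the tested probe sets of the 9 genes. A second, dim probe set of Acvr1b (1422098_at), below the filter, read 9.30, 12.5 and 12.7 against 30.1, 35.3 and 22.5. These dim groups did not overlap, with a log2 difference of -1.49, or -0.95 with the floor at 16, so the probe sets of Acvr1b disagreed. The labels do not say which parts of the transcript they read.

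Acvr1 encodes a type I receptor best known for BMP signals. It read 850, 750 and 604 in Mest-KO against 711, 687 and 848 in controls at its brightest probe set (1448460_at), a log2 difference of -0.04 (interval from -0.43 to 0.35). A second (1416786_at) read 431, 339 and 321 against 342, 389 and 370, a difference of -0.06 (interval from -0.43 to 0.30). The dimmest (1416787_at), below the filter, read 29.2, 20.8 and 14.9 against 2.37, 31.7 and 26.7, and its difference of 0.70 became -0.71 without the control array at 2.37.

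**Figure D2:**
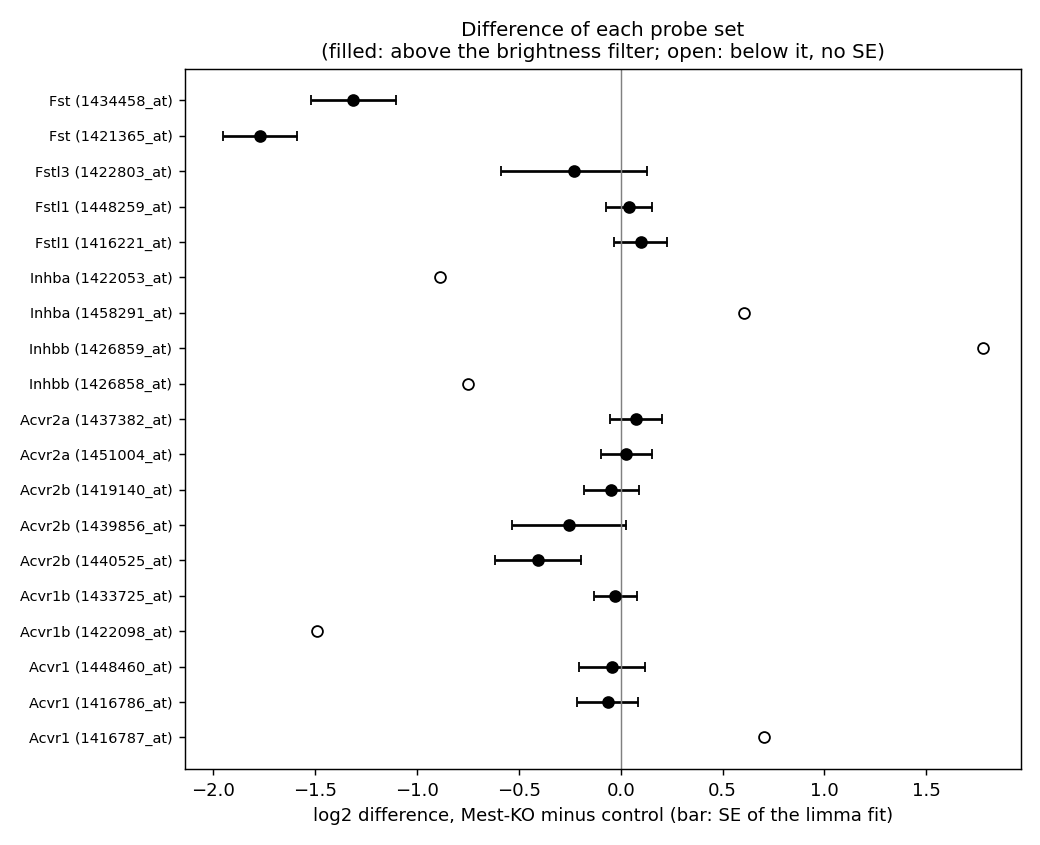
Log2 difference, Mest-KO minus control, of the 19 probe sets, ordered by role from the antagonists to the receptors, with bars for the SE of the limma fit. The Fst probe sets lie at -1.31 and -1.77, the other filled points between -0.41 and 0.10, and the open points, which are below the brightness filter, scatter from -1.49 to 1.78.

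Of the 19 probe sets, 13 passed the filter, 4 with a higher and 9 with a lower mean in Mest-KO. With median centring, which moved the median of all tested probe sets to -0.12, all 13 lay below 0, and Fstl1 and Acvr2a, whose differences had been above 0, ran from -0.11 to -0.06. Of the 11 that do not read Fst, limma called 0 at a Benjamini-Hochberg adjusted p under 0.05 over all probe sets, 0 at an unadjusted p under 0.05, and 0 with the prior that follows level. Over the whole table the shares were 0.00% after adjustment, 3.98% before it, and 0.0518% with that prior. Groups did not overlap at 2 of the 13, both of Fst and both lower in Mest-KO, where 5.20% of all tested probe sets were lower without overlap and 4.17% higher; the choice of Fst fixes this count. The median difference of the 13 was -0.05, and that of all tested probe sets was -0.01.

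The wider pathway was read from 63 further genes in 6 groups. Of these, 59 were named on the array and 45 passed the filter at their brightest probe set. In the gene fit limma called 0 of the 45 in either direction, as it called 0.00% of all 12462 genes. Before adjustment 2 were higher (Wfikkn2 and Spock1) and 2 lower (Smad6 and Tmeff2) at p under 0.05, against 2.23% of all genes higher and 2.91% lower. Spock1 is named after its value was seen. With the prior that follows level none of the 45 was called either. The groups did not overlap for 3 genes higher and 4 lower in Mest-KO, where 4.74% of all genes were higher and 5.85% lower without overlap.

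In the reported fit the signs leaned upward. The log2 difference was above 0 for 35 of the 45 genes, with a median of 0.06, against 6117 of the 12462 genes and a median of -0.003. That count depends on scaling and probe choice. With median centring, which moved the median of all genes to -0.14, it was 11 of 45, and 30 of 45 lay above the median of all genes. That is 24.4% above 0, against 21.5% of all genes. It was 33 of 45 with the deposited scaling alone (73.3% against 53.6% of all genes) and 28 of 45 without Mest-KO 2 (62.2% against 48%). With the mean of each gene's probe sets it was 25 of 41 (61% against 45.7%). The lists were not tested as sets against all genes. The mesenchyme markers leaned the same way, with 8 of 9 above 0, and their part in this was not tested.

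Among other ligands, only Inha passed the filter. It encodes the inhibin alpha subunit, which pairs with a beta subunit to oppose activin, and it read 239, 180 and 229 in Mest-KO against 253, 150 and 198 in controls (log2 difference 0.06, SE 0.185, limma adjusted p = 0.971). Nodal, Gdf11, Gdf3, Inhbc and Inhbe lay below the filter, and Mstn and Gdf1 were not named on the array. Most of the ligands listed here were thus too dim to compare or not read, and ligands outside the list were not examined.

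Of 7 other receptor genes above the filter, all 7 had a difference above 0 (median 0.15) and none passed. Tgfbr2, the type II receptor of TGF-beta, read 374, 441 and 410 in Mest-KO against 360, 343 and 321 in controls. The groups did not overlap, and the log2 difference was 0.23 (SE 0.0992, limma adjusted p = 0.909). Its 2 other probe sets, both below the filter, gave -0.87 and -0.93. With median centring 3 of the 7 receptor genes lay above 0, and 6 of the 7 lay above the median of all genes, -0.14. Without Mest-KO 2, 4 of the 7 lay above 0.

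The Smads and their partners gave 6 of 8 above 0 (median 0.07), but 4 of 8 without Mest-KO 3. With median centring 1 of 8 lay above 0, and 5 of 8 lay above the median of all genes, -0.14. Smad3, which carries the activin signal to the nucleus, read 3629, 4834 and 4116 in Mest-KO against 3550, 3710 and 3526 in controls, a log2 difference of 0.24 (SE 0.119, limma adjusted p = 0.909), which was 0.14 without Mest-KO 2 and 0.06 with median centring. The groups did not overlap after normalization, but on the deposited scale Mest-KO 1 lay below control 2. A second Smad3 probe set above the filter gave -0.27. Smad2, the other carrier, had a value of -0.13 (SE 0.0941) and another probe set of it 0.04.

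Of 11 inhibitor genes, 7 lay above 0 (median 0.05), but with median centring 0 of 11 did (median -0.13). With that centring the median of all genes was -0.14, and 6 of the 11 lay above it. The median of the inhibitor genes was -0.01 without Mest-KO 3 and -0.003 without control 2. Smad6, an inhibitory Smad that mainly restrains BMP signals, read 141, 143 and 177 in Mest-KO against 198, 302 and 179 in controls. Its groups did not overlap, although Mest-KO 3 and control 3 were nearly equal, and the log2 difference was -0.58 (SE 0.220, limma adjusted p = 0.909), or -0.33 without control 2. Tgif2, a corepressor of Smads, had a value of 0.12 (SE 0.0882) here and of -0.10 at another probe set.

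Among genes that respond to Smad2 and Smad3, 4 of 6 lay above 0 (median 0.09). Without control 3 it was 2 of 6 (median -0.05), and without Mest-KO 2 the median was 0.002. Cdkn1a, a cell cycle inhibitor gene, read 1145, 1164 and 1335 in Mest-KO against 1473, 1358 and 1396 in controls, without overlap (log2 difference -0.22, SE 0.0982, limma adjusted p = 0.909), and a second probe set above the filter gave -0.46. Pmepa1, a feedback inhibitor gene induced by TGF-beta, differed by 0.23 (SE 0.126), or 0.13 without Mest-KO 2 and 0.35 without Mest-KO 1, with -0.60 and -0.17 at 2 other probe sets above the filter. The readout genes thus had signs on both sides and none passed.

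Proteins with a follistatin-like domain include matrix proteins and binders of TGF-beta ligands, and 10 of 12 of their genes lay above 0 (median 0.08). With median centring it was 4 of 12, and 9 of 12 lay above the median of all genes, -0.14. Without the pools of 1 sex, 7 of 13 lay above 0 (median 0.003). Wfikkn2, which encodes a secreted protein that binds myostatin and Gdf11, read 89.2, 90.6 and 111 in Mest-KO against 70.0, 45.9 and 72.5 in controls. Its groups did not overlap, and its log2 difference of 0.50 (SE 0.135) had the smallest limma adjusted p of the 45 genes, 0.830. Tmeff2, a transmembrane protein gene, read 116, 123 and 125 against 133, 208 and 155, a log2 difference of -0.52 (SE 0.194, limma adjusted p = 0.909), or -0.30 without control 2. None of these genes passed the test.

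**Figure D3:**
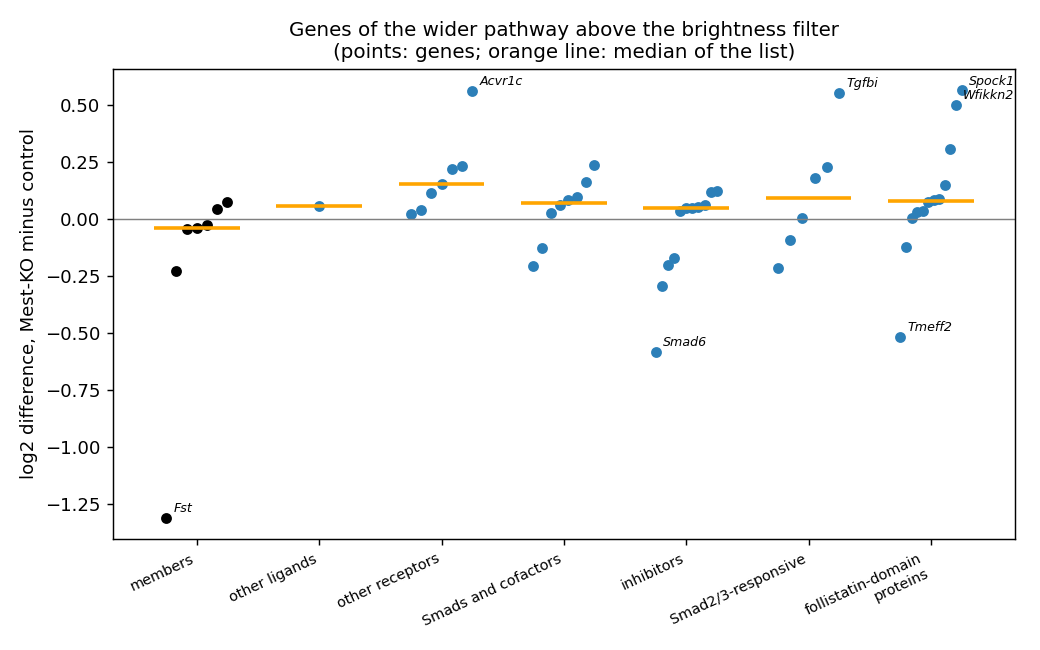
Log2 difference, Mest-KO minus control, of each gene above the brightness filter at its brightest probe set, for the 9 genes described first (members, black) and the 6 groups of further pathway genes (blue), with the median of each group as an orange line. Fst lies at -1.31, and the 45 further genes lie between -0.58 and 0.56.

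The genes with the profile most like that of Fst were sought among all tested genes by the root mean square distance between log2 profiles over the 6 arrays, each centred on its own mean. The 8 nearest were all lower in every Mest-KO pool than in every control pool, which the size of the Fst difference brings with it. Their distances ran from 0.114 to 0.261 log2 units, against a median of 0.709 over all genes compared. Genes taken as the nearest lie below that median by selection. Saa1, an acute-phase protein gene, was nearest (distance 0.114). It read 31.8, 41.9 and 54.2 in Mest-KO against 119, 91.1 and 92.5 in controls, a log2 difference of -1.42.

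Gdnf, which encodes a neurotrophic factor, was the second (distance 0.179), with 29.9, 31.8 and 55.5 in Mest-KO against 101, 65.3 and 68.2 in controls. Both are far dimmer than the brighter probe set of Fst. Itih5, an inter-alpha-trypsin inhibitor heavy chain gene, followed (0.193), with 755, 777 and 797 in Mest-KO against 1979, 1761 and 1660 in controls. Plet1 and Muc15, which encode epithelial surface proteins, came next at 0.203 and 0.219. The others were Insyn2b (0.224), Ntng1 (0.248), which encodes a membrane-anchored netrin, and Pxdc1 (0.261). On the deposited scale control 1 was the highest array for all 8 of them, as for Fst, which their selection by likeness favours. In the centred normalized profiles control 2 was the highest for Insyn2b (0.610 against 0.595 in control 1) and for Ntng1 (0.545 against 0.534). These likenesses rest on 6 arrays that share their group difference. With the filter at the 60th percentile Saa1, Gdnf, Insyn2b and Ntng1 were no longer among the tested genes.

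**Figure D4:**
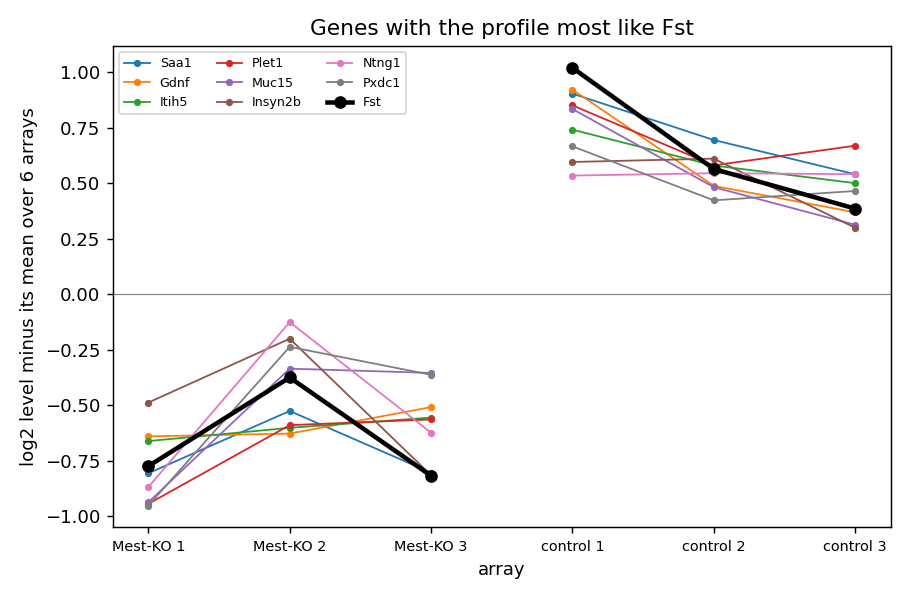
Centred log2 level on each array for Fst (black, brighter probe set) and the 8 genes nearest to it, with Mest-KO arrays on the left and control arrays on the right. All 9 lie below their own mean on the Mest-KO arrays and above it on the control arrays, with log2 differences from -1.003 for Insyn2b to -1.42 for Saa1.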

How the data were processed

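The deposited table holds linear intensities, 1 per probe set and array, made by the authors with Affymetrix Expression Console 1.1, per the submitters' processing notes; the values show a trimmed mean of 500 on each array (2% trimmed from each end). How probes were summarised and background was corrected is not stated there, and no detection calls were used. Such scaling does not equalise the distributions of the arrays.

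Of 45101 probe sets, 64 controls were left out. Symbols come from the platform annotation, updated through RefSeq gene identifiers. A floor of 1 was applied to the intensities, and their log2 values were quantile normalized over the 6 arrays. Features with a mean above the 40th percentile of probe sets (an intensity of 34.4) were tested with limma 3.58.1 in R 4.3.3 (no trend, no covariate), Benjamini-Hochberg adjusted p under 0.05. The fit ran over 27022 probe sets for the 9 genes, and over 12462 genes (brightest probe set each) for the wider pathway. Only the limma fit was tested on simulated data, with values made for genes already normalized and filtered. Figures were drawn with matplotlib 3.10.9.

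The 9 genes and the other lists were chosen with earlier results of these data known. Named were all probe sets of the 9 genes, the gene with the smallest p in each direction of each pathway list, and the 8 genes nearest to Fst. Single marker genes were named outside this rule. Arrays are called biological replicates in the labels. Arrays of equal replicate number showed no shared deviation from their group means (correlation across genes -0.109, -0.00832 and -0.00734). For arrays of unequal number the correlations ran from -0.100 to 0.110. Deviations from a mean of 3 arrays sum to 0 in each group, so this check cannot exclude a pairing.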

Additional observations from a re-analysis of the deposited data

How the results depend on the processing

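The number of arrays and the brightness of the probe sets set the limits: 6 of the 19 probe sets, all 4 of the activin subunits among them, lay below the filter. In the reported fit 0 genes, 0 probe sets, 0 probe sets of the 9 genes and 0 wider pathway genes passed. With median centring the counts were 25 genes, 15 probe sets and 1 probe set of the 9 genes. When only features above the 60th percentile were tested, they were 7, 9 and 1. With limma's trend they were 13, 14 and 2, and with robust fitting as well 16, 17 and 2. Every called probe set of the 9 genes was of Fst, the gene chosen for its difference. Without a filter 1 probe set passed, with the most variable probe set 1 gene, and at an adjusted p under 0.10 there were 7 genes and 1 probe set. The wider pathway count was 0 under every setting run. With the replicate number as a block, and without each array in turn, all 4 counts were 0. Signs turned for pathway genes that had not passed: Inha (-0.021 with median centring, -0.18 between the pools of both sexes, -0.10 to 0.22 with an array left out), Tgif2 (-0.0377 with median centring, -0.10 with the most variable probe set), Smad3 (-0.0924 with the mean of probe sets), Pmepa1 (-0.18 with the mean of probe sets and -0.60 with the most variable one) and Smad2 (0.0434 with the most variable probe set). Median centring moved the median of all genes to -0.14, and Inha and Tgif2 stayed above it there. The cause of the other turns of sign was not tested.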

Other observations

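One probe set that the annotation gives to both Orc4 and Acvr2a (1457451_at) was left out of the values above. It read 30.8, 106 and 127 in Mest-KO against 127, 77.1 and 113 in controls, with overlapping groups and a log2 difference of -0.55 that the low Mest-KO 1 array carries.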
